A study of Mus musculus with 9 samples.

Results

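The mitochondrial genome of the mouse encodes its own tRNAs. In the deposited table, 7 of the 200 tRNA-derived fragments were assigned to mitochondrial tRNAs other than Ser-GCT. They were chosen by name, as every fragment labelled chrM whose parent was not Ser-GCT; the rule uses names and no measured value, though it was set with earlier results of these data known. They belonged to 4 parents: 3 fragments of His-GTG, 2 of Ser-TGA, 1 of Trp-TCA and 1 assigned to Gly-TCC. The small RNA came from complexes of retinal pigment epithelium, choroid (the vascular layer behind it) and sclera of C57BL/6 mice. Of 9 libraries, 3 came from complexes taken 3 days after laser burns, 3 from complexes taken 7 days after them, and 3 from control mice, of whose handling nothing further is given. Lasered mice were 6 to 8 weeks old; the burns ruptured Bruch's membrane, a lesion through which new vessels grow from the choroid. Whether each library stands for its own animal or for pooled animals is not stated, and the p-values below therefore cover library-to-library spread, which may be technical. The table holds tRNA fragments alone, so the tissue could not be checked against marker mRNAs.

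Mitochondrial DNA is transcribed into long RNAs in which tRNAs lie between the messenger and ribosomal RNAs. Each tRNA is cut out at both ends, which also frees its neighbours, and the enzyme TRNT1 then adds the bases CCA to its 3′ end, where the amino acid is attached. A cut in the anticodon loop of a finished tRNA gives long fragments from either side of it (tiRNA-5 and tiRNA-3), and other cuts give shorter 5′ fragments (tRF-5) and 3′ fragments (tRF-3). The class tRF-1 is meant for the trailer removed from the 3′ side of a precursor tRNA. The anticodon TCA lets the mitochondrial tryptophan tRNA read UGA, a stop codon in the cytosol, as tryptophan.

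The fragments are shown within the deposited parent sequences, written as DNA from 5′ to 3′ with the fragment in capitals, because their ends differ in kind between parents.
tiRNA-32:71-chrM.His-GTG: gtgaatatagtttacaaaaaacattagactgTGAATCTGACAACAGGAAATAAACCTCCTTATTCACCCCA
tRF-54:70-chrM.Trp-TCA: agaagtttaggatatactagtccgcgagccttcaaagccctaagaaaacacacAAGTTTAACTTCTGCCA
tRF-1:24-chrM.Ser-TGA: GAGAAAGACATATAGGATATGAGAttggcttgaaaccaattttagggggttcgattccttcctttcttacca
tRF-+1:T27-chrM.Gly-TCC: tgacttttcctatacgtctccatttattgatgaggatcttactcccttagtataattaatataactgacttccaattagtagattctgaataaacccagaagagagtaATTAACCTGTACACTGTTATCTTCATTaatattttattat
The His-GTG fragment of 40 nt is a tiRNA-3 that starts at position 32, inside the anticodon at positions 31 to 33, and runs to the end of the tRNA. The Trp-TCA fragment of 17 nt, a tRF-3a, is the last part of its tRNA and ends in the added CCA. The Ser-TGA fragments of 24 nt and 23 nt, tRF-5b, start at the first base of the tRNA and stop before the anticodon at positions 31 to 33. All 7 fragments matched a single tRNA in the deposited alignments, and none occurred in a transcript from outside chromosome M in the GENCODE M21 set (mouse build GRCm38, the assembly of mm10).

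The other 2 His-GTG fragments, named tiRNA-32:69-chrM.His-GTG-M1-37:C>A (38 nt) and tiRNA-32:70-chrM.His-GTG-M1-38:C>A (39 nt), were listed with a mismatch near the 3′ end. Read against the annotated gene mt-Th, the 3 His-GTG forms can each be matched up to the gene's last base. The bases left over in this longest match are shown in capitals.
38 nt: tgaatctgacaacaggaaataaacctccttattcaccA
39 nt: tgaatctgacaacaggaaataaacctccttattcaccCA
40 nt: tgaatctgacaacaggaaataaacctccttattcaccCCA
The gene itself ends in C, so the letters do not show which of these C bases were encoded and which were added. All 3 forms end in the letters CCA. The 38 nt and 39 nt forms therefore read equally as a complete CCA on a shorter gene end.

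In GRCm38 the longest match of the His-GTG fragments lies at chrM:11576-11612 on the plus strand, in the tRNA gene mt-Th (11546 to 11612). The Trp-TCA fragment without its CCA lies at chrM:5003-5016 on the plus strand, at the end of mt-Tw (4950 to 5016). The 24 nt Ser-TGA fragment lies at chrM:6915-6938 on the minus strand, at the start of mt-Ts1 (6870 to 6938), and the 23 nt form at chrM:6916-6938. The fragment assigned to the Gly-TCC trailer lies at chrM:9459-9485 on the plus strand. It holds no base of the tRNA gene mt-Tg, which ends at the base before it, and equals the first 27 bases of mt-Nd3 (9459 to 9806), the gene of a subunit of respiratory complex I. By sequence alone a trailer of the tRNA and the 5′ end of the mt-Nd3 message cannot be told apart.

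**Figure D1:**
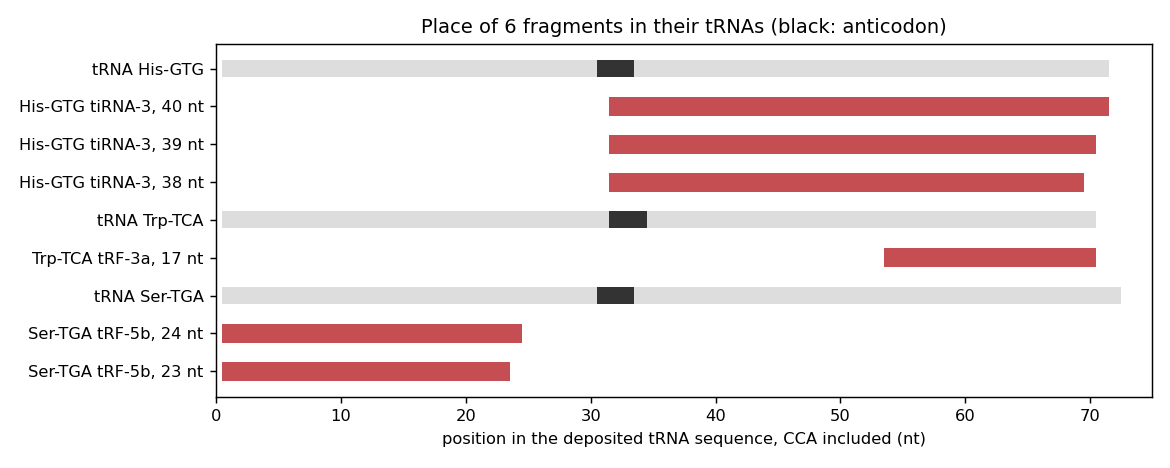
Place of 6 fragments in their tRNAs. The horizontal axis is the position in the deposited tRNA sequence in nucleotides, CCA included; grey bars are the tRNAs, black marks the anticodon and red bars are the fragments. The His-GTG fragments start within the anticodon at position 32, the Trp-TCA fragment covers positions 54 to 70 and the Ser-TGA fragments start at position 1.

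Mapped reads per library numbered 1638381 to 2138312 at day 3, 1204173 to 1791720 at day 7 and 1223377 to 2155977 in the controls. Nuclear Gly-GCC fragments held 91.3% to 96.6% of the listed counts, and the listed fragments together held 56.0% to 62.1% of mapped reads at day 3, 75.3% to 78.6% at day 7 and 75.7% to 76.0% in the controls. The mitochondrial fragments studied here were rare beside them. All 7 together held 151 to 189 counts per library at day 3, 250 to 494 at day 7 and 233 to 504 in the controls, and a single fragment had 5 to 379 counts in a library. Counting error is therefore a sizeable part of the spread of the fragments with few counts.

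Levels are given in CPM, counts scaled to the mapped reads of a library, as the authors deposited them. The edgeR log2 fold changes use mapped totals multiplied by TMM scaling factors, so they differ from ratios of these CPM. A read is a whole fragment, so no scaling by length applies. In the controls the 40 nt His-GTG fragment led with 109 ± 11.3 CPM (SD, n = 3). The other 6 fragments averaged between 15.0 and 20.1 CPM in the controls, and each overlapped its neighbours in that order. By mean level over all 9 libraries the 40 nt His-GTG fragment ranked 70 among the 200 listed fragments, and the other 6 ranked from 148 to 183. The 10 fragments of mitochondrial Ser-GCT, the remaining mitochondrial parent, were far more abundant: summed, they had 1751 to 2597 CPM at day 3, 1537 to 3436 at day 7 and 1204 to 2339 in the controls.

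**Figure D2:**
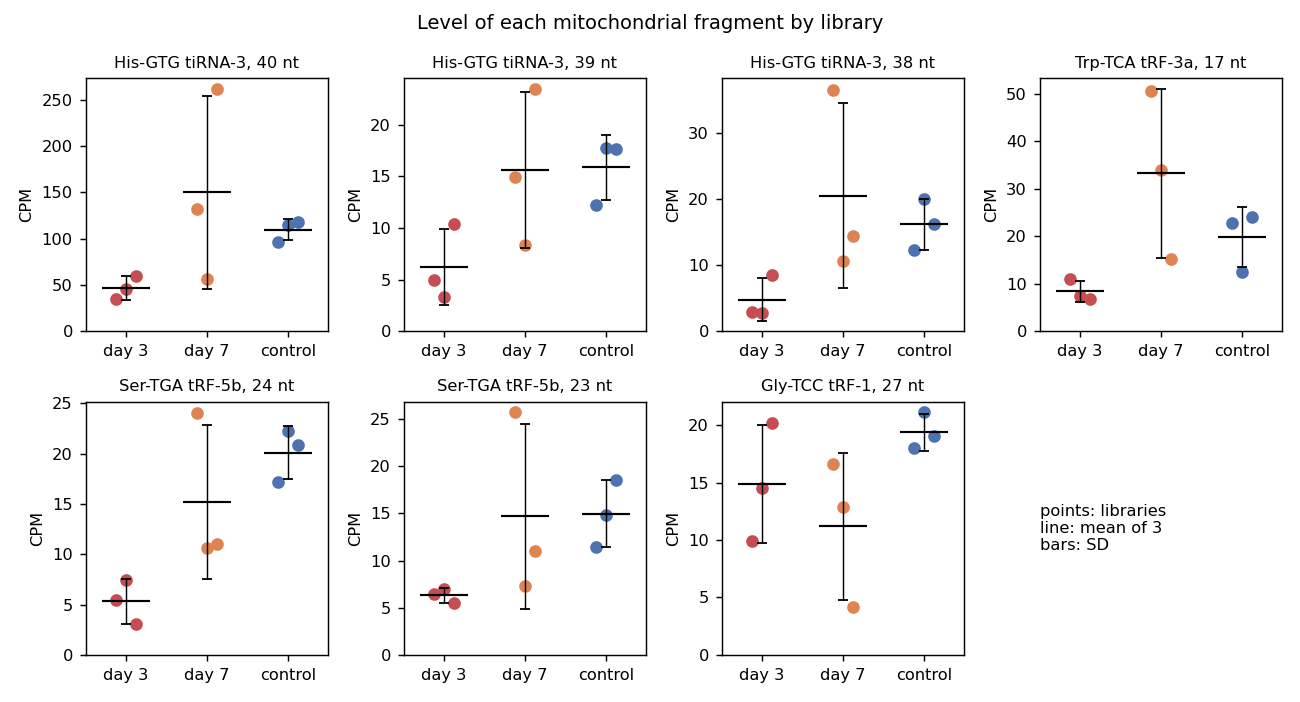
Level of each fragment by library. The vertical axis is the deposited CPM on a linear scale from 0; points are libraries of day 3, day 7 and control, the line is the mean of 3 and the bars are the SD. In 6 of the 7 panels each day 3 point lies under each control point; in the Gly-TCC panel they overlap.

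The day 3 comparison asked which fragments differed 3 days after laser. The 38 nt His-GTG, 24 nt Ser-TGA and Trp-TCA fragments fell, while the 40 nt and 39 nt His-GTG forms, the 23 nt Ser-TGA form and the Gly-TCC fragment were not called. Summed over all 7, the level was 75.0, 88.4 and 114 CPM in the day 3 libraries, against 190, 223 and 234 CPM in the controls. Singly, 3 of 7 fell (edgeR quasi-likelihood test over all 200 fragments, adjusted p below 0.05), beside 11.5% of all fragments. In 6 of 7, all but the Gly-TCC fragment, each day 3 library lay below each control, as in 19.5% of all fragments. The whole-table split of 20 higher and 23 lower became 33 and 25 with DESeq2, and 49 and 14 with listed counts as library size, which called 1 of the 7, the 24 nt Ser-TGA fragment. In bulk tissue, fewer cells of a type and less of the RNA per cell cannot be told apart.

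The Ser-TGA 24 nt fragment had 5.47, 7.48 and 3.05 CPM at day 3, against 17.2, 22.3 and 20.9 CPM in the controls. Every day 3 library lay below every control, with a log2 fold change of -1.90 (SE 0.485, edgeR adjusted p = 0.0077). Its call held in all 14 alternatives that were tried, with an adjusted p of 0.00332 to 0.0475. Here and below, the alternatives for single fragments include a fit with no filter. That fit repeats the reported one, because the filter removed 0 fragments. The 23 nt form had 6.46, 7.01 and 5.49 CPM at day 3, against 11.4, 14.9 and 18.6 CPM in the controls. These did not overlap either, but the change of -1.26 on the log2 scale (SE 0.504) had an edgeR adjusted p of 0.0671. The 24 nt form made up 45.8%, 51.6% and 35.7% of the Ser-TGA counts at day 3, against 60.0%, 60.0% and 52.9% in the controls, and lay between 48.3% and 59.4% at day 7. Day 3 and control shares did not overlap, but they rest on 14 to 31 counts per library at day 3 and 35 to 85 in the controls. The exact (Clopper-Pearson) 95% interval ran from 33.1% to 69.8% for the highest day 3 library and from 41.8% to 63.9% for the lowest control.

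Of the His-GTG fragments, the 38 nt form had 2.98, 2.81 and 8.55 CPM at day 3, against 12.3, 20.0 and 16.2 CPM in the controls. It fell with a log2 fold change of -1.82 (SE 0.541, edgeR adjusted p = 0.0195). The 40 nt form had 34.3, 45.8 and 59.8 CPM at day 3, against 96.5, 114 and 117 CPM in the controls. Its groups stood well apart, yet with a log2 fold change of -1.27 (SE 0.462) its edgeR adjusted p was 0.0505, just short of the threshold. The 39 nt form had 4.97, 3.27 and 10.4 CPM at day 3, against 12.3, 17.7 and 17.6 CPM in the controls, with a log2 fold change of -1.41 (SE 0.548, edgeR adjusted p = 0.0590).

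The Trp-TCA fragment had 10.9, 7.48 and 6.71 CPM at day 3, against 22.9, 12.6 and 24.1 CPM in the controls. It fell with a log2 fold change of -1.27 (SE 0.451, edgeR adjusted p = 0.0496). The Gly-TCC fragment had 9.94, 14.5 and 20.1 CPM at day 3, against 18.0, 21.1 and 19.0 CPM in the controls. Those groups overlapped, and the log2 fold change of -0.43 (SE 0.455, edgeR adjusted p = 0.489) is within its error.

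The calls other than that of 24 nt Ser-TGA depended on single libraries and on the method or scaling. With all libraries kept, the Trp-TCA call was lost with DESeq2 (adjusted p = 0.0628) and, in edgeR, with RLE factors (0.0629), with no factors (0.074), with listed counts as library size (0.212) and without Gly-GCC fragments (0.0501). In all, the Trp-TCA call held in 5 of 14 alternatives, counting the fit with no filter, which repeats the reported fit. The 38 nt His-GTG call was lost with listed counts (edgeR adjusted p = 0.0891). The 40 nt His-GTG form, not called as reported, was called with DESeq2 (adjusted p = 0.0349) and in 7 of its 15 alternatives. The 38 nt His-GTG fragment had an adjusted p of 0.065 or 0.0667 once day 3 replicate 1 or 2 was left out, and 0.0501 once control replicate 3 was, and its log2 fold change was -2.45 without day 3 replicate 3 (edgeR adjusted p; 0.0109 to 0.0891 over its 14 alternatives). The Trp-TCA fragment had 0.118 or 0.11 once day 3 replicate 2 or 3 was left out, and 0.123 or 0.141 once control replicate 1 or 3 was (edgeR adjusted p; 0.0206 to 0.212 over its 14 alternatives). In the other direction, the 39 nt His-GTG form had 0.0301 without day 3 replicate 3 and the 40 nt form 0.0392 without control replicate 2 (edgeR adjusted p; 0.0301 to 0.221 and 0.00406 to 0.159 over the alternatives). All 7 log2 fold changes stayed below 0 in each alternative in which they were fitted.

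Since the forms of a parent overlap in sequence, counts were also summed by parent and side of the tRNA over the whole table, which gave 59 sums. Of the 4 sums studied here 2 were lower at day 3, beside 20.3% of the 59 sums. The Ser-TGA sum had 11.9, 14.5 and 8.55 CPM at day 3, against 28.6, 37.1 and 39.4 CPM in the controls (log2 fold change -1.28, SE 0.428, edgeR adjusted p = 0.0153). The His-GTG sum had 42.2, 51.9 and 78.7 CPM at day 3, against 121, 152 and 151 CPM in the controls (log2 fold change -1.05, SE 0.373, edgeR adjusted p = 0.0216). Day 3 and control libraries did not overlap in either sum. The Ser-TGA sum missed the threshold once day 3 replicate 3 (edgeR adjusted p = 0.129) or control replicate 3 (0.051) was left out, its alternatives ranging from 0.0102 to 0.129. The His-GTG sum missed it once day 3 replicates 1, 2 or 3 (edgeR adjusted p = 0.0979, 0.0955 and 0.0965) or control replicates 2 or 3 (0.0565 and 0.051) were left out; RLE factors and listed counts ended the call too, its alternatives ranging from 0.0122 to 0.108. Trp-TCA and Gly-TCC have 1 fragment each, so their sums hold the same counts as the single fragments and differ only by the scaling and spread of the fit. In this fit Trp-TCA had a log2 fold change of -0.93 (SE 0.478) and was not called (edgeR adjusted p = 0.128; 0.0371 without control replicate 2, and 0.0371 to 0.322 over its alternatives).

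Low levels at day 3 were shared with other fragments. The median log2 fold change was -1.27 for the 7 fragments, against -0.04 for all 200. It was -1.12 for the 33 nuclear 3′ fragments, of which 12 fell and 0 rose, and -1.01 for the 15 nuclear trailers, of which 5 fell and 0 rose. The 10 mitochondrial Ser-GCT fragments had a median of 0.51, with 0 called lower and 1 called higher. The 134 nuclear 5′ fragments had a median of 0.39, with 2 called lower and 19 higher. The Ser-TGA fragments are 5′ fragments of a mitochondrial tRNA, as the Ser-GCT ones are; both Ser-TGA log2 fold changes were below 0, against 2 of the 10 for Ser-GCT. As a share of all mitochondrial counts, a ratio within each library that no scaling enters, the 7 fragments held 3.93%, 3.29% and 6.12% at day 3, against 7.53%, 15.6% and 13.5% in the controls. These shares did not overlap. The share of mapped reads in listed fragments was lower at day 3 as well, and its part in these results was not tested.

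**Figure D3:**
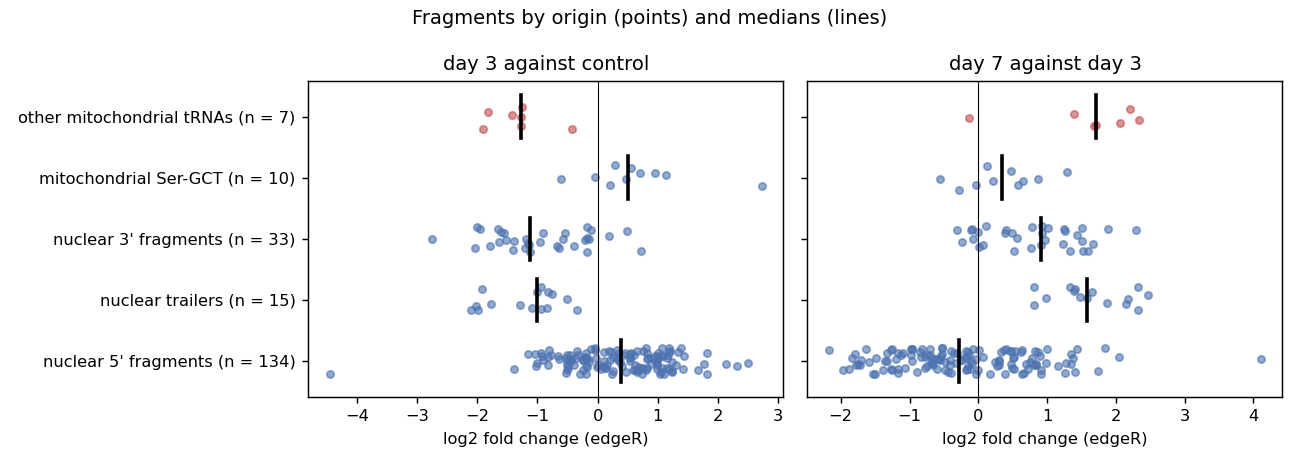
Log2 fold changes (edgeR) of the fragments by origin, for day 3 against control and day 7 against day 3. Points are fragments and black lines are medians; at day 3 the medians were -1.27 for the 7 fragments, -1.12 for nuclear 3′ fragments and 0.51 for mitochondrial Ser-GCT.

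The day 7 comparison asked which fragments differed 7 days after laser. None of the 7 was called against the controls (edgeR adjusted p below 0.05; 1 of 7 at an unadjusted p below 0.05, and 0 of 7 called by DESeq2), beside 3.5% of all fragments that rose and 0.5% that fell. That split of 7 and 1 became 7 and 8 with listed counts as library size. Summed, they had 301, 140 and 341 CPM at day 7, against 190, 223 and 234 CPM in the controls. The day 7 libraries were spread to both sides of the controls. The Trp-TCA fragment, the 1 with an unadjusted p below 0.05, had 50.7, 34.0 and 15.2 CPM at day 7, against 22.9, 12.6 and 24.1 CPM in the controls. The groups overlapped, with a log2 fold change of 0.94 (SE 0.424, edgeR adjusted p = 0.217). The 40 nt His-GTG fragment had 132, 55.8 and 261 CPM at day 7, against 96.5, 114 and 117 CPM in the controls (log2 fold change 0.79, SE 0.452, edgeR adjusted p = 0.350). Here day 7 replicate 2 lay below the controls and the other two above them, and leaving out day 7 replicate 3 turned the log2 fold change to -0.14 (edgeR adjusted p = 0.892; 0.167 to 0.892 over the alternatives). With all libraries and no scaling factors, as in the CPM, the log2 fold change was 0.45.

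The Gly-TCC fragment was the only one of the 7 whose libraries did not overlap at day 7. It had 16.6, 12.8 and 4.14 CPM at day 7, against 18.0, 21.1 and 19.0 CPM in the controls. The log2 fold change was -0.56 (SE 0.472, edgeR adjusted p = 0.543), which did not pass the test, and 12.0% of all fragments had each day 7 library below each control. The remaining 4 fragments had log2 fold changes between -0.20 and 0.51. For the 23 nt Ser-TGA and 39 nt His-GTG fragments the sign at day 7 depended on how libraries were scaled. None of the 4 parent sums was called at day 7 (edgeR), nor was any other of the 59 (0.0%).

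**Figure D4:**
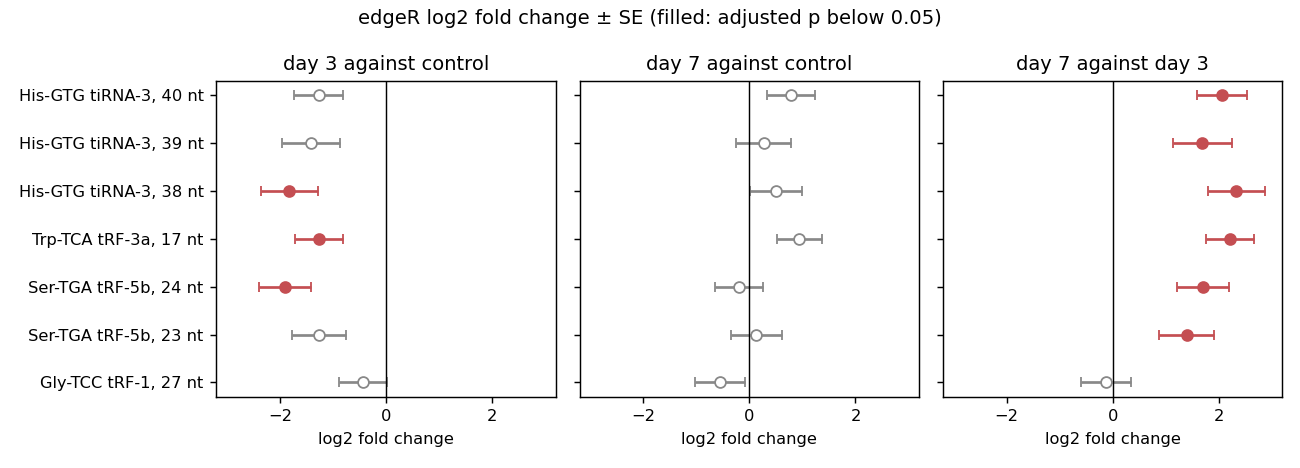
Log2 fold change of each fragment with its SE (edgeR) in the 3 comparisons. Filled red points passed an adjusted p of 0.05; 3 of 7 did so below 0 for day 3 against control, 0 of 7 for day 7 against control and 6 of 7 above 0 for day 7 against day 3.

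Day 7 against day 3 gave the most calls. Of the 7 fragments 6 were higher at day 7 than at day 3 and 0 lower (edgeR adjusted p below 0.05), beside 23.0% of all fragments higher and 11.5% lower. In 4 of 7 each day 7 library lay above each day 3 library, as in 15.0% of all fragments. The whole-table split of 46 higher and 23 lower turned with the scaling, to 37 and 35 with RLE factors, 30 and 39 with no factors and 9 and 63 with listed counts as library size; the 7 fragments had 3 called higher and 0 lower with listed counts. This comparison shares its day 3 libraries with the first, so the calls are not separate evidence. Each listed fragment reached 20.1 CPM in some library, but of those called here only the 40 nt His-GTG form did so at day 3. The 38 nt His-GTG and 23 nt Ser-TGA forms reached it only in day 7 replicate 1, and the 39 nt His-GTG form only in day 7 replicate 3. If that level decided the listing, the calls of these forms are not independent of it. The Trp-TCA fragment had 50.7, 34.0 and 15.2 CPM at day 7, against 10.9, 7.48 and 6.71 CPM at day 3 (log2 fold change 2.21, SE 0.449, edgeR adjusted p = 0.00258). Every day 7 library lay above every day 3 library, and the call held in all 14 alternatives (adjusted p 0.00116 to 0.0179).

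For His-GTG, the 40 nt form had 132, 55.8 and 261 CPM at day 7, against 34.3, 45.8 and 59.8 CPM at day 3 (log2 fold change 2.06, SE 0.470, edgeR adjusted p = 0.00474). Day 7 replicate 2 lay within the day 3 range, and the call held in all 15 alternatives (adjusted p 0.00116 to 0.0305). The 38 nt form had 36.5, 10.6 and 14.5 CPM at day 7, against 2.98, 2.81 and 8.55 CPM at day 3, without overlap (log2 fold change 2.33, SE 0.543, edgeR adjusted p = 0.00474; called in all 14 alternatives, 0.00172 to 0.04, and with a log2 fold change of 2.96 without day 3 replicate 3). The 39 nt form had 14.9, 8.37 and 23.4 CPM at day 7, against 4.97, 3.27 and 10.4 CPM at day 3, which overlapped (log2 fold change 1.69, SE 0.555, edgeR adjusted p = 0.0248). Its call was lost without day 3 replicate 1 (adjusted p = 0.0732), day 3 replicate 2 (0.0849) or day 7 replicate 3 (0.154, with a log2 fold change of 1.09), with no factors (0.0852), with listed counts (0.228) and in a fit of these 2 groups alone (0.0592), within 0.0135 to 0.228 over its alternatives.

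The Ser-TGA 24 nt fragment had 24.1, 10.6 and 11.0 CPM at day 7, against 5.47, 7.48 and 3.05 CPM at day 3, without overlap (log2 fold change 1.70, SE 0.495, edgeR adjusted p = 0.0141). Its adjusted p was 0.0653 without day 7 replicate 1, 0.0509 with no factors and 0.16 with listed counts as library size (0.0141, in the fit with no filter, to 0.16 over its alternatives). The 23 nt form had 25.7, 7.26 and 11.0 CPM at day 7, against 6.46, 7.01 and 5.49 CPM at day 3 (log2 fold change 1.39, SE 0.512, edgeR adjusted p = 0.0391). Day 7 replicate 2 stood only just above day 3, and the call held in 2 of 14 alternatives (adjusted p 0.0336 to 0.305). These were the fit without day 7 replicate 2 and the fit with no filter, which repeats the reported fit. It was lost without day 3 replicates 1, 2 or 3 (0.076, 0.0589 and 0.0751), day 7 replicate 1 (0.208) or day 7 replicate 3 (0.0544). The Gly-TCC fragment was again apart from the others, with 16.6, 12.8 and 4.14 CPM at day 7, against 9.94, 14.5 and 20.1 CPM at day 3 (log2 fold change -0.13, SE 0.474, edgeR adjusted p = 0.837). With no scaling factors its log2 fold change was -0.41.

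By parent, 3 of the 4 sums were higher at day 7 than at day 3, beside 23.7% of the 59 sums. The log2 fold change was 1.65 for His-GTG (SE 0.377, edgeR adjusted p = 0.000497), 1.84 for Trp-TCA (SE 0.474, adjusted p = 0.00199) and 1.17 for Ser-TGA (SE 0.433, adjusted p = 0.029). Without day 7 replicate 3 the His-GTG value was 0.98 (edgeR adjusted p = 0.00925), and its alternatives ranged from 0.98 to 2.16 with an adjusted p of 0.000548 to 0.024. The Ser-TGA sum missed the threshold without day 3 replicates 1, 2 or 3 (edgeR adjusted p = 0.062, 0.0509 and 0.197) or day 7 replicate 1 (0.0884), and with listed counts, its alternatives ranging from 0.0111 to 0.197. The sum of the mitochondrial Ser-GCT fragments, by contrast, had a log2 fold change of 0.17 (SE 0.371, edgeR adjusted p = 0.837). Singly, 1 of the 10 Ser-GCT fragments was called higher and 0 lower, with a median log2 fold change of 0.34.

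Fragments of nuclear tRNAs were called in this comparison too, in both directions. The median log2 fold change of the 7 fragments was 1.70, against 0.15 for all 200, 0.92 for the nuclear 3′ fragments (14 of 33 higher) and 1.58 for the nuclear trailers (12 of 15 higher). The 134 nuclear 5′ fragments had a median of -0.28, with 12 called higher and 23 lower. Of the 8 nuclear His-GTG fragments, 7 of them from the 5′ side and 1 a trailer, 4 were higher and 0 lower, with a median of 1.31; at day 3 against control 0 of them were called (edgeR), with a median of -0.63. The nuclear His-GTG tRNA thus had listed 5′ fragments and a trailer, while the listed fragments of the mitochondrial one were tiRNA-3.

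The composition of the His-GTG fragments was compared within each library, where scaling has no part. The 40 nt form held 81.2%, 88.3% and 76.0% of His-GTG counts at day 3, 71.9%, 74.6% and 87.3% at day 7 and 79.7%, 75.2% and 77.6% in the controls. Both laser groups overlapped the controls. The 38 nt form ranged from 5.41% to 10.9% at day 3, from 4.84% to 19.9% at day 7 and from 10.1% to 13.2% in the controls. Within day 7 the spread exceeded counting error: replicate 1 had 19.9% (44 of 221 counts, exact 95% interval 14.9% to 25.8%) and replicate 3 had 4.84% (21 of 434, 3.02% to 7.30%).

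**Figure D5:**
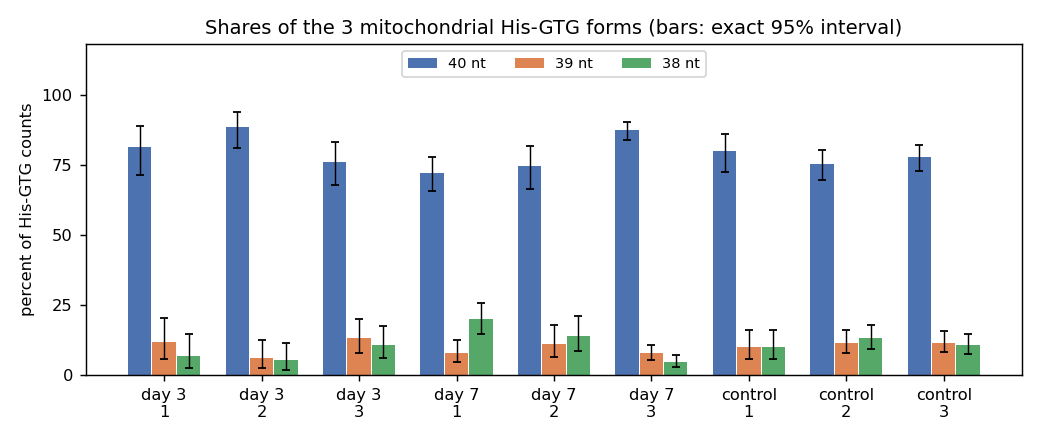
Share of each of the 3 His-GTG forms in the His-GTG counts of a library, in percent from 0. Bars are the 40 nt, 39 nt and 38 nt forms in each library of day 3, day 7 and control, and error bars are exact 95% intervals for counting error. The 40 nt form held 71.9% to 88.3% in the 9 libraries.

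Day 7 replicate 3 stood apart in its mixture of parents. His-GTG made up 87.9% of the counts of the 7 fragments there, against 53.6% to 69.0% in the other 8 libraries. It also had the lowest Gly-TCC level, 4.14 CPM, and the highest 40 nt His-GTG level, 261 CPM. With that library left out, the log2 fold change of the 40 nt form for day 7 against day 3 was 1.13, against 2.06 with it (edgeR).

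Across the 9 libraries, which share depth and groups, the fragments of the same parent had alike patterns of log2(CPM + 1). Pearson's r was 0.91 for the 2 Ser-TGA forms and 0.77 to 0.91 among the 3 His-GTG forms. Between the parents His-GTG, Ser-TGA and Trp-TCA it was 0.39 to 0.83, and between Gly-TCC and the others it was -0.31 to 0.20. Among all fragments of the table, the pattern of the 40 nt His-GTG form was most like tRF-59:76-Tyr-GTA-2-M2 (r = 0.94), then the 39 nt His-GTG form (0.91) and tiRNA-1:33-Gly-CCC-1 (0.85). The 24 nt Ser-TGA fragment was most like its 23 nt form (0.91), then tRF-1:31-His-GTG-2 and tRF-1:16-Gly-GCC-2-M3 (0.89 each). The Trp-TCA fragment was most like 3 nuclear trailers of Arg-ACG, namely tRF-+1:T23-Arg-ACG-1-3 (0.83), tRF-+1:T15-Arg-ACG-3 (0.82) and tRF-+1:T22-Arg-ACG-1-3 (0.82). The Gly-TCC fragment was most like the nuclear 3′ fragments tRF-58:75-Pro-AGG-1-M4 (0.96), tRF-59:76-Thr-TGT-2-M2 (0.91) and tRF-60:76-Thr-TGT-2-M2 (0.89).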

How the data were processed

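Per the labels' protocols, RNA was treated to remove charged amino acids, cyclic phosphates and m1A and m3C methyl groups, and libraries were selected on a gel, which limits the fragment lengths seen. FastQC, Bowtie, edgeR and mm10 appear in the submitters' processing notes without versions or roles; alignment settings are not given in the sources used here. The authors deposited raw read counts per fragment and library, and CPM scaled to mapped reads, per the file headers. Dividing a count by its CPM returned a library's mapped total. The columns headed NC were taken as the controls, since the other columns carry the names of the laser groups. Another 7 lines hold no fragment and are not used here. The highest library of each listed fragment had 20.1 CPM or more, and rarer fragments were not analysed here. The 23 nt Ser-TGA form reached that level only in day 7 replicate 1 (25.7 CPM). The 39 nt His-GTG form did so only in day 7 replicate 3 (23.4 CPM). The 38 nt His-GTG form did so only in day 7 replicate 1 (36.5 CPM), with 20.0 CPM in control replicate 2. Whether such a floor decided the listing is not stated.

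Counts of all 200 fragments were fitted with edgeR 4.0.16 in R 4.3.3: a mean per group over 9 libraries, mapped totals with TMM factors (0.749 to 1.14), filterByExpr (0 removed), two-sided quasi-likelihood F tests, Benjamini-Hochberg adjustment over all fragments and a threshold of 0.05. The lowest TMM factors were those of day 7 replicates 2 and 3, 0.783 and 0.749. Standard errors were obtained as the size of the log2 fold change over √F. The same fit was made on 59 sums by parent and side. DESeq2 1.42.0 was an alternative, with others described after the report. The code was tested on data simulated for day 3 against control, with a common spread for all fragments. It called 26.8% of 2-fold changes, 90.6% of 4-fold changes and 0.6% of unchanged fragments. The changed fragments were drawn from all 200 at their own levels. These rates therefore need not hold for the rarer fragments studied here, which ranked from 148 to 183 by level. A fragment that was not called may therefore still differ. Intervals cover counting error only, since reads without molecular identifiers are not independent molecules. All 7 fragments are named, and fragments outside them by likeness of pattern. Members and lists were chosen with earlier results of these data known. All pairs of libraries differed beyond sampling noise (chi-square per degree of freedom of 20.6 or more).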

Additional observations from a re-analysis of the deposited data

Results flagged for a closer look

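The change against the controls differed between day 7 and day 3 for 6 of the 7 fragments, tested as day 7 against day 3 in the edgeR fit of all 9 libraries (adjusted p from 0.00258 to 0.0391). The difference in log2 fold change was 2.21 for the Trp-TCA fragment, 2.06, 1.69 and 2.33 for the 40 nt, 39 nt and 38 nt His-GTG forms, and 1.70 and 1.39 for the 24 nt and 23 nt Ser-TGA forms. Of all 200 fragments 46 differed in this direction and 23 in the other. The controls cancel in this difference, so these are the calls of day 7 against day 3 given above and not a further result. Groups of 3 libraries were too small for a test of single outlying libraries.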

How the results depend on the processing

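For day 3 against control, the 3 called fragments became 1 with listed counts as library size, 1 when fragments averaging under 50 CPM were dropped (1 of the 7 remains), 6 with a fit of the 2 groups, and 1 to 4 with a library left out. The 2 called parent sums became 1 with RLE factors, 1 with listed counts and 0 to 2 with a library left out. The summed level, a log2 ratio of -1.22, was -0.84 with CPM taken over listed counts. For day 7 against day 3, the 6 called fragments became 3 with mapped totals and no factors, 3 with listed counts, 1 with the 50 CPM filter and 4 to 6 with a library left out. For day 7 against control 0 were called throughout. Listed counts as library size moved the median log2 fold change of all fragments by 0.41 at day 3, by -0.28 for day 7 against control and by -0.65 for day 7 against day 3; mapped totals with no factors moved it by -0.26 and -0.27 for day 7 against control and against day 3. Relative to that median, the median of the 7 fragments was -1.23 and 1.56 in the reported fits, and -1.25 and 1.60 with listed counts. Replicate numbers were not treated as a pairing, since deviations correlated over 0.1 in 2 of 9 pairs with the same number. With the replicate number as a block, 5, 0 and 5 fragments were called for day 3 against control, day 7 against control and day 7 against day 3, and 2, 0 and 3 sums.

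Signs turned only where nothing was called. For day 7 against control, the 23 nt Ser-TGA fragment (0.13 as reported) had -0.0187 with DESeq2, -0.0190 with RLE factors, -0.0661 with mapped totals and no factors, -0.0767 with listed counts, -0.16 without Gly-GCC fragments and -0.25 to 0.41 with a library left out. The 39 nt His-GTG form (0.27) had -0.0437, -0.0626 and -0.0045 with mapped totals, listed counts and no Gly-GCC fragments, and -0.33 to 0.55 with a library left out. With a library left out, the 40 nt His-GTG form ranged from -0.14 to 1.17, the His-GTG sum from -0.0703 to 1.19 and the Ser-TGA sum from -0.29 to 0.31. For day 7 against day 3 the Gly-TCC fragment ranged from -0.40 to 0.20. The cause of these changes was not tested.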
